A study of Homo sapiens with 6 samples.

Results

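The intragenic distal peaks were 34102 open chromatin regions that lay inside the body of a protein-coding gene but far from any start of one, out of 171517 peaks in all (19.9%). A peak was taken when its centre was more than 10 kb and at most 100 kb from the nearest start of a protein-coding transcript. Starts came from GENCODE release 44 (hg38). The centre also had to fall between the ends of a protein-coding gene, called its host gene here. No accessibility value was used for this choice, but the peaks themselves had been called from these libraries, treatment by treatment. The assay for transposase-accessible chromatin with sequencing (ATAC-seq) cuts open chromatin with a transposase, so the number of reads over a peak measures how accessible that stretch was. All 6 libraries were made from H9 (WA09) naive human embryonic stem (nES) cells, an established line, after removal of feeder cells and 24 h on laminin in tt2iLGö medium, which holds inhibitors of MEK, GSK3 and protein kinase C together with LIF. The control group had 3 libraries (labelled DMSO, 0 mM dm-αKG) and the dm-αKG group 3 libraries (4 mM dimethyl α-ketoglutarate for 24 h). The experiment was done once with 3 biological replicates per group, so the p-values below measure the spread between these samples of 1 cell line.

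Distal peaks inside genes often mark enhancers, elements that bind transcription factors and act on a promoter over a distance, which can be that of the host gene or of a neighbour. In naive pluripotent cells, enhancers are known to carry composite OCT-SOX sites for OCT4 and SOX2, and KLF and TEAD sites. AP-1 and forkhead (FOX) factors open enhancers in many other cell types. α-Ketoglutarate is a metabolite of the tricarboxylic acid (TCA) cycle and a cosubstrate of the TET and Jumonji dioxygenases, which act on methylated DNA and histones; the dimethyl ester enters cells.

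The sequences that the results below turn on are given 5′ to 3′ on the plus strand of hg38, as the central 200 bases of each peak. Capitals mark matches on either strand, to the OCT, OCT-SOX, SOX and TEAD motifs in the windows that became less accessible and to the AP-1, NRF2 and FOX motifs in those that became more accessible; matches to other motifs are not marked. The window in MDM2 is shown because it became less accessible, shares sequence with other intragenic distal peaks and holds the OCT octamer ATGCAAAT. NKTR and KAZN hold OCT-SOX matches, and ALPK1 belongs to another group of peaks with shared sequence. CPNE4 and ARHGAP44, with AP-1 matches, and FAT2, with a FOX match, became more accessible.
MDM2, chr12:68831320-68831519: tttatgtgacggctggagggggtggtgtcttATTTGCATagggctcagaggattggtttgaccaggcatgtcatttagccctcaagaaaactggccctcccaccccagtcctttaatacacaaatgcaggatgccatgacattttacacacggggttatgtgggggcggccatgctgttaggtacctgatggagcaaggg
NKTR, chr3:42631742-42631941: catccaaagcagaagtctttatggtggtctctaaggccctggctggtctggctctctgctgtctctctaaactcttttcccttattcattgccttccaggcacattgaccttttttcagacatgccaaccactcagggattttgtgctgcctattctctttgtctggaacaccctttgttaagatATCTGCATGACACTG
KAZN, chr1:14910200-14910399: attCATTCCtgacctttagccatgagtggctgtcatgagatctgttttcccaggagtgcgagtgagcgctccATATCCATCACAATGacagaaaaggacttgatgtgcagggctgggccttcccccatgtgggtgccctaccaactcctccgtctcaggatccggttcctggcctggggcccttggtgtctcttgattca
ALPK1, chr4:112361535-112361734: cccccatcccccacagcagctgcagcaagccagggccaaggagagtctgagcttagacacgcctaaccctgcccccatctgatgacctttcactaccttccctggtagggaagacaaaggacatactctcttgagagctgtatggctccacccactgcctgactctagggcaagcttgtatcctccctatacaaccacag
CPNE4, chr3:132136139-132136338: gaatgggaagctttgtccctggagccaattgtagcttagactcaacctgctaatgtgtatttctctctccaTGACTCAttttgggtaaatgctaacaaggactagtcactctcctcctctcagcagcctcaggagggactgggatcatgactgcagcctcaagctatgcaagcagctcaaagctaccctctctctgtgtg
ARHGAP44, chr17:12896518-12896717: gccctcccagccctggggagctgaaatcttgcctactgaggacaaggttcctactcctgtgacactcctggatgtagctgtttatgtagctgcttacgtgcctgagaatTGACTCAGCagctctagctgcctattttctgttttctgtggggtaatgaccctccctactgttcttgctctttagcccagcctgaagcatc
FAT2, chr5:151561893-151562092: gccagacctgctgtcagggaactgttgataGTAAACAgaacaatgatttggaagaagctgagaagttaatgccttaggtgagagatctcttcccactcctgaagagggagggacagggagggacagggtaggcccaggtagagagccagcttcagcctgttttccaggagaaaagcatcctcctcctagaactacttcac

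The peak tables held 13025674 to 26828622 counts per library, and the scaling factors for composition (TMM) ran from 0.99138 to 1.0142. Among the intragenic distal peaks, 1 to 29 had no count in a given library, and 3850 had fewer than 10 counts in at least 1 library. Counts were read for cell identity at the promoters: 8 of 9 naive pluripotency genes had a promoter peak, with 200.1 to 746 normalized counts in the control group against a median of 103 over all promoter peaks. DPPA3 had none. The 6 genes of primed pluripotency (112 to 469) and the 6 of trophoblast (24.5 to 263) also had promoter peaks, whereas of 6 fibroblast genes COL3A1, LUM and DCN had none and the other 3 ran from 43.98 to 198. An open promoter does not show that the gene was transcribed. Normalized counts are counts scaled to the mean library size after TMM.

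Most of these peaks were in introns. An exon of a coding transcript covered the centre of 2910 peaks (8.53%), and the remaining 91.5% are counted as intronic here. In the first intron of the canonical transcript lay 7193 peaks. Another 4410 lay in the host gene but outside its canonical transcript. The nearest protein-coding start was that of a host gene for 80.2%, at a median distance over all of 26540.5 bp (10001 to 99991). The peaks belonged to 7601 host genes, with a median of 3 and a maximum of 51 peaks, and 1548 peaks lay in more than 1 gene. A start of a noncoding transcript was within 1 kb of 1468 peaks.

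More of the intragenic distal peaks lost than gained accessibility with dm-αKG. With edgeR's quasi-likelihood test over all peaks, an adjusted p below 0.01 and a change of more than 1 on the log2 scale, 907 (2.66%) were less accessible, beside 1.96% of all peaks, and 349 (1.02%) were more accessible, beside 0.782% of all peaks. They made up 27.0% of all less accessible and 26.01% of all more accessible peaks. Among intergenic distal peaks 2.88% were less and 0.718% more accessible, and among promoter peaks 0.228% and 0.462%. The peaks called less accessible had a median of 62.2 normalized counts in control and 25.8 with dm-αKG (median log2 fold change −1.25, lowest −3.56), and those called more accessible went from 21.2 to 48.2 (median 1.23, highest 2.63). The control and dm-αKG libraries did not overlap at 898 of the 907 and at 346 of the 349. Without overlap were 33.7% of all intragenic distal peaks, beside 32.4% of all peaks. Of the 907, 567 were only in the control peak list. Of the 349, 267 were only in the dm-αKG list. These peaks thus came into the table through the group in which they were higher.

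Over all 34102 peaks the median log2 fold change was −0.04, compared with 0.01 for all peaks, −0.07 for intergenic distal peaks and 0.11 for promoters. With no fold threshold, 2792 fell and 1015 rose at an adjusted p below 0.01, where 6.54% of all peaks fell and 3.34% rose. Of the calls among intragenic distal peaks 72.2% were less accessible, near the 71.5% of the calls among all peaks. When each library was also corrected for the GC content of the peaks, 705 were less and 486 more accessible (59.2% less, beside 60.5% over all peaks), where 1.53% and 1% of all peaks were called, and the median was −0.00. The balance between loss and gain thus moved with this correction, while losses stayed more frequent than gains, in these peaks and in all peaks alike.

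As a share of all counts in peaks, intragenic distal peaks held 14.57%, 14.56% and 14.69% in the control libraries and 13.80%, 13.88% and 14.27% in the dm-αKG libraries. The dm-αKG libraries were all lower, by 0.62 percentage points on average (14.6 ± 0.077 against 13.98 ± 0.251, SD, n = 3, two-sided exact permutation p = 0.1, the smallest that 3 against 3 libraries allow). Intergenic distal peaks went from 17.3% to 16.3%, and promoter peaks from 40.8% to 43.3%. The shares of a library sum to a whole, so these differences are not independent of each other.

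Of the 8 less accessible peaks with the smallest adjusted p, taken 1 per gene where the groups did not overlap, 7 are given here. These were all in introns and were found in both peak lists. In MDM2, the ubiquitin ligase that removes p53, the peak chr12:68831305-68831533 in intron 8 held normalized counts of 574, 537 and 602 in the control libraries and 187, 190 and 207 in the dm-αKG libraries (log2 fold change −1.56 ± 0.09 SE, adjusted p = 3.02e-25). In NKTR, a cyclophilin-related protein of natural killer cells, the peak chr3:42631692-42631991 in intron 8 held 622, 598 and 592 in the control libraries and 254, 264 and 247 in the dm-αKG libraries (log2 fold change −1.24 ± 0.09 SE, adjusted p = 1.75e-21). The treated libraries lay close together, and the groups were far apart; the start nearest to the NKTR peak was that of ZBTB47. In SARS1, the seryl-tRNA synthetase, the peak chr1:109229920-109230122 in intron 4 held 763, 745 and 756 in the control libraries and 361, 305 and 368 in the dm-αKG libraries (log2 fold change −1.13 ± 0.08 SE, adjusted p = 4.54e-21). In ALPK1, a kinase that senses bacterial sugars, the peak chr4:112361534-112361734 in intron 2, 64.2 kb from the start, held 501, 479 and 560 in the control libraries and 185, 196 and 241 in the dm-αKG libraries (log2 fold change −1.33 ± 0.10 SE, adjusted p = 2.18e-20). SARS1 had the highest level of the 7 peaks in control. In PRICKLE2, a planar cell polarity protein, the peak chr3:64143439-64143677 in intron 7 held 397, 395 and 397 in the control libraries and 157, 145 and 142 in the dm-αKG libraries (log2 fold change −1.41 ± 0.11 SE, adjusted p = 1.63e-19). In URM1, a ubiquitin-like protein that serves tRNA modification, the peak chr9:128383050-128383411 in intron 2 held 276, 296 and 262 in the control libraries and 72.4, 101 and 80.8 in the dm-αKG libraries (log2 fold change −1.74 ± 0.13 SE, adjusted p = 7.72e-19). The URM1 peak had the largest fold of the 7. In KAZN, a protein of cell junctions, the peak chr1:14910198-14910401 in intron 1 held 338, 358 and 328 in the control libraries and 120, 131 and 154 in the dm-αKG libraries (log2 fold change −1.37 ± 0.11 SE, adjusted p = 4.83e-17). In none of the 7 did a treated library reach the lowest control library, which the choice of peaks required. Each call held when any 1 library was left out and with GC correction.

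Of the 8 peaks that gained accessibility with the smallest adjusted p, chosen in the same way, 7 are given here. These had lower counts, and 3 of them held the AP-1 motif TGACTCA. In CPNE4, a calcium-dependent phospholipid-binding protein, the peak chr3:132136131-132136345, 96.6 kb from the start, held normalized counts of 105, 104 and 115 in the control libraries and 259, 273 and 322 in the dm-αKG libraries (log2 fold change 1.39 ± 0.13 SE, adjusted p = 1.76e-15). In FAT2, an atypical cadherin, the peak chr5:151561884-151562101 in intron 3 held 61.7, 43.6 and 80.2 in the control libraries and 156, 189 and 157 in the dm-αKG libraries (log2 fold change 1.46 ± 0.17 SE, adjusted p = 5.82e-11). The CPNE4 peak, with an AP-1 match, was the highest of the 7 with dm-αKG. In NKAIN2, a membrane protein, the peak chr6:123830219-123830437 in intron 1 held 69.8, 73.2 and 53.4 in the control libraries and 171, 182 and 160 in the dm-αKG libraries (log2 fold change 1.37 ± 0.16 SE, adjusted p = 7.05e-11). In ARHGAP44, a GTPase-activating protein, the peak chr17:12896515-12896719 in intron 3 held 81.4, 61.7 and 75.3 in the control libraries and 168, 182 and 159 in the dm-αKG libraries (log2 fold change 1.23 ± 0.16 SE, adjusted p = 1.84e-09). The ARHGAP44 window holds overlapping AP-1 and NRF2 matches. In SLC12A8, of the cation-chloride cotransporter family, the peak chr3:125137496-125137696 in intron 5 held 43.8, 50.1 and 54.7 in the control libraries and 127, 132 and 135 in the dm-αKG libraries (log2 fold change 1.41 ± 0.18 SE, adjusted p = 1.93e-09). In ARHGEF4, a guanine nucleotide exchange factor and the third with an AP-1 match, the peak chr2:130882184-130882386 in intron 1 held 51.9, 51.8 and 86.2 in the control libraries and 139, 159 and 165 in the dm-αKG libraries (log2 fold change 1.31 ± 0.17 SE, adjusted p = 4.76e-09). Control library 3 was the highest of the control libraries at ARHGEF4 and at FAT2, and still below every treated library. In USP24, a deubiquitinase, the peak chr1:55143795-55143996 in intron 21 held 76.9, 48.5 and 54.7 in the control libraries and 151, 137 and 141 in the dm-αKG libraries (log2 fold change 1.26 ± 0.17 SE, adjusted p = 1.66e-08). The groups were apart at all 7, as the choice of peaks required, and each call held without any 1 library and with GC correction.

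**Figure D1:**
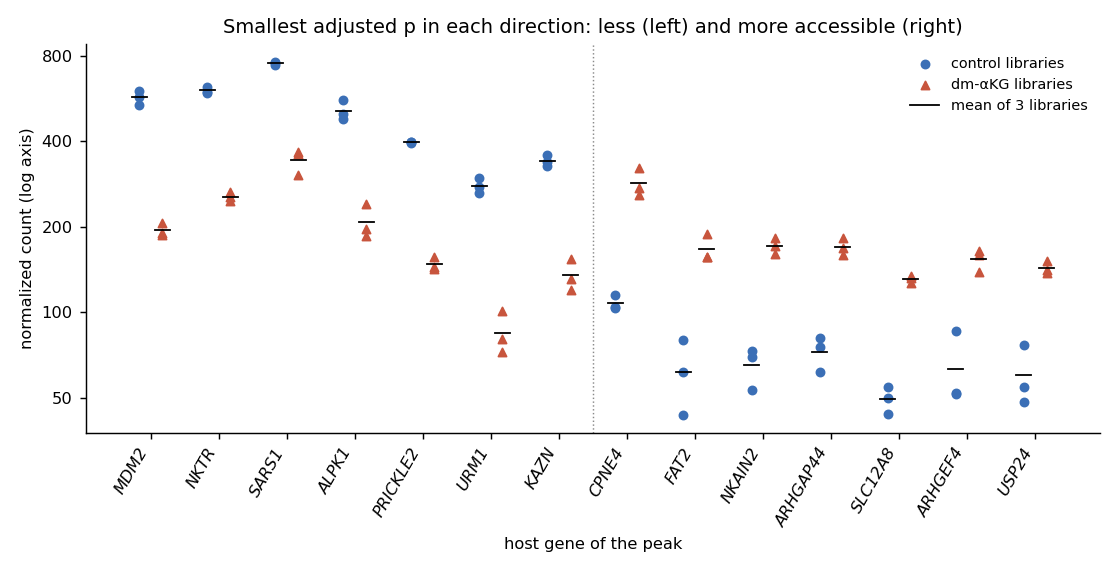
Normalized counts (log axis) of 7 of the 8 less and 7 of the 8 more accessible intragenic distal peaks with the smallest adjusted p in their direction, 1 peak per host gene; circles are control libraries, triangles dm-αKG libraries and bars their means (n = 3). By the choice of peaks, every treated library is below every control library at the 7 on the left, and above at the 7 on the right. The less accessible peaks had 278 to 754 counts on average in control and the more accessible ones 49.5 to 108.

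The share of calls varied little with the distance from a start, and more with exons and introns. Between 10 and 20 kb from a start 2.67% were less and 0.947% more accessible, and between 50 and 100 kb 2.54% and 1.22%. Just outside the distance limits, 2.01% of flank peaks (1 to 10 kb from a start) and 2.83% of peaks beyond 100 kb were less accessible. Peaks in the first intron had a median log2 fold change of −0.09 (3.00% less, 0.806% more), those in later introns −0.04 (2.68% and 1.11%), and those over an exon 0.05 (1.27% and 1.20%). With GC correction these medians were −0.04, 0.00 and 0.05 (first introns, later introns and exons of any coding transcript). Exonic peaks were thus called less accessible less often than intronic ones with and without it (1.10% against 2.16% with the correction), a difference given as a description without a test. Along the gene, 3.16% of peaks in the first 0.25 of its length and 2.30% in the last 0.25 were less accessible.

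GC content, in contrast, went with the calls over a wide range. Of peaks with under 40% GC 5.48% were less and 0.926% more accessible, and the share that was less accessible fell through every class to 0 of 1063 peaks at 70% or more. The median GC content was 48.5% for less accessible, 50% for more accessible and 52% for uncalled peaks. With GC correction the peaks under 40% GC were 3.24% less and 2.39% more accessible. All peaks of the table showed the same order of classes, from 5.21% down to 0.0620% less accessible. Whether base composition moved with the treatment through the cells or through the libraries was not tested.

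**Figure D2:**
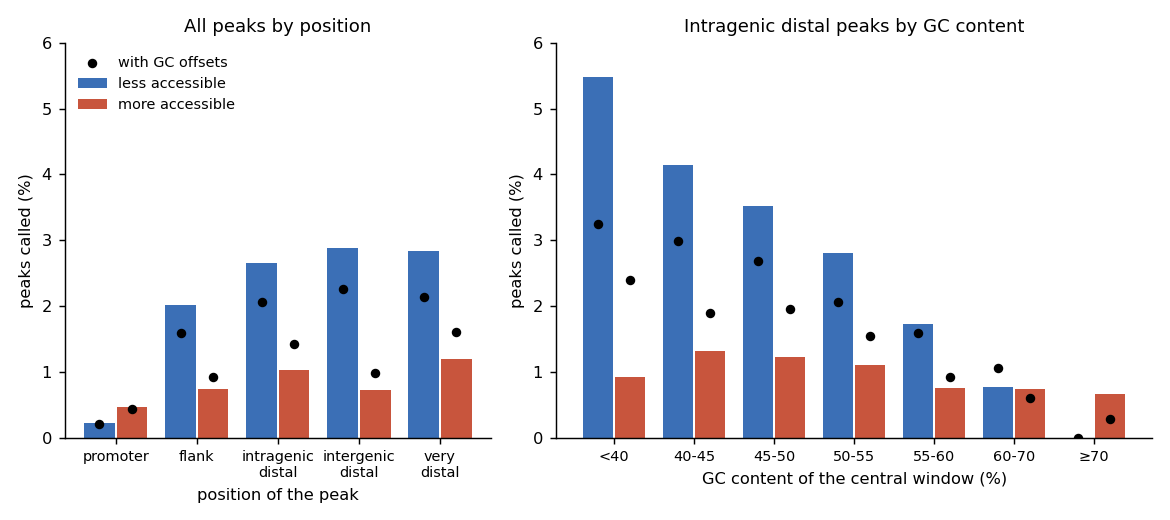
Share of peaks called less (blue) or more (red) accessible, by position among all 171517 peaks (left) and by GC content of the central 200 bases among the 34102 intragenic distal peaks (right); black dots give the shares with GC correction. Promoters have the lowest share of less accessible peaks (0.228%), and among intragenic distal peaks that share declines from 5.48% below 40% GC to 0 at 70% or more.

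A peak found only in the control list was called less accessible in 9.18% of 6177 cases, and a peak found only in the dm-αKG list more accessible in 5.01% of 5332. Over all peaks of the table these shares were 8.23% and 4.48%. Of the 22593 peaks in both lists 339 were less and 81 more accessible (0.359%). The lists were made from the same libraries, so they are no separate evidence for the counts. Several peaks described below came in through a single list, that of the group where they were higher. Only in the control list were those of TEAD1, ESRRB, CREBBP, NCOA2, TET2, KDM4C, ROR2, FAT4, PATJ and F11R, among others. Only in the dm-αKG list were those of TBX3, BRD1 and HDAC4, the EGFR and CDH23 peaks given with their values, and others.

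Peaks with OCT or SOX motifs were called less accessible more often than peaks without them. Peaks with AP-1 or FOX motifs were called more accessible more often. These are counts and medians without a test, and the motifs were chosen with earlier results of these data known. The composite OCT-SOX motif was found in the central 200 bases of 348 intragenic distal peaks (1.02%, against 0.758% of all peaks), and these had a median log2 fold change of −0.31, with 29 less and 2 more accessible (8.33% and 0.575%; 1 more without control library 1 or 3 or dm-αKG library 1 or 3). Peaks without it were 2.60% less accessible. The octamer ATGCAAAT (OCT) was in 926 peaks (2.72%, all peaks 2.284%), of which 5.94% were less and 1.19% more accessible (median −0.22). Without it the shares were 2.57% and 1.02%. The 11 more accessible peaks with the octamer became 4 without control library 1 or without control library 3. Of the 926 peaks, 69 belong to a group with shared sequence, called group B below. The SOX core CATTGT was in 3281 (9.62%, all peaks 7.88%), of which 5.24% were less accessible (median −0.14). The SOX core overlaps part of some OCT-SOX matches. TEAD (GGAATG, 6067 peaks, 17.8%, all peaks 14.6%) and KLF (GGGNGTGG, 4740 peaks, 13.9%, all peaks 13.7%) had medians of −0.14 and −0.11, with 3.66% and 2.68% less accessible. With GC correction the medians were −0.21 for OCT-SOX, −0.11 for OCT, −0.07 for SOX, −0.08 for TEAD and −0.08 for KLF, against −0.00 for all intragenic distal peaks.

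The AP-1 motif TGACTCA was in 1852 peaks (5.43%, all peaks 4.50%), with a median log2 fold change of 0.10; 59 were more and 25 less accessible, and without control replicate 2 the less accessible ones numbered 16. That is 3.19% more accessible with the motif and 0.899% without it, and 16.9% of the more accessible peaks held it against 2.76% of the less accessible ones. The FOX motif TGTTTAC was in 1239 peaks (3.63%, all peaks 2.85%), of which 3.07% were more accessible and 0.946% of those without it. The NRF2 motif TGACNNNGC was in 3343 peaks (9.80%, all peaks 9.56%), with 1.53% more accessible; it overlaps some AP-1 matches. The p53 motif was in only 56 peaks (0.164%, all peaks 0.168%), of which 5 were more accessible (3 without control library 2) and 1 less, a call that was kept without dm-αKG library 3 and lost without any other library. CTCF, which holds chromatin loops, was matched in 3513 peaks (10.3%, all peaks 8.76%), of which 15 were less and 19 more accessible (0.427% and 0.541%, median 0.09). The 15 became 9 without dm-αKG library 2 and 25 without dm-αKG library 3, and the 19 became 11 without dm-αKG library 2. The motif of GATA factors, AGATAA (2694 peaks, 7.90%, all peaks 6.22%) and that of TFAP2, GCCNNNGGC (4744 peaks, 13.9%, all peaks 17.9%) had medians of −0.05 and −0.03, with 1.04% and 0.906% more accessible. A match is a run of letters and does not show that a factor was bound.

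**Figure D3:**
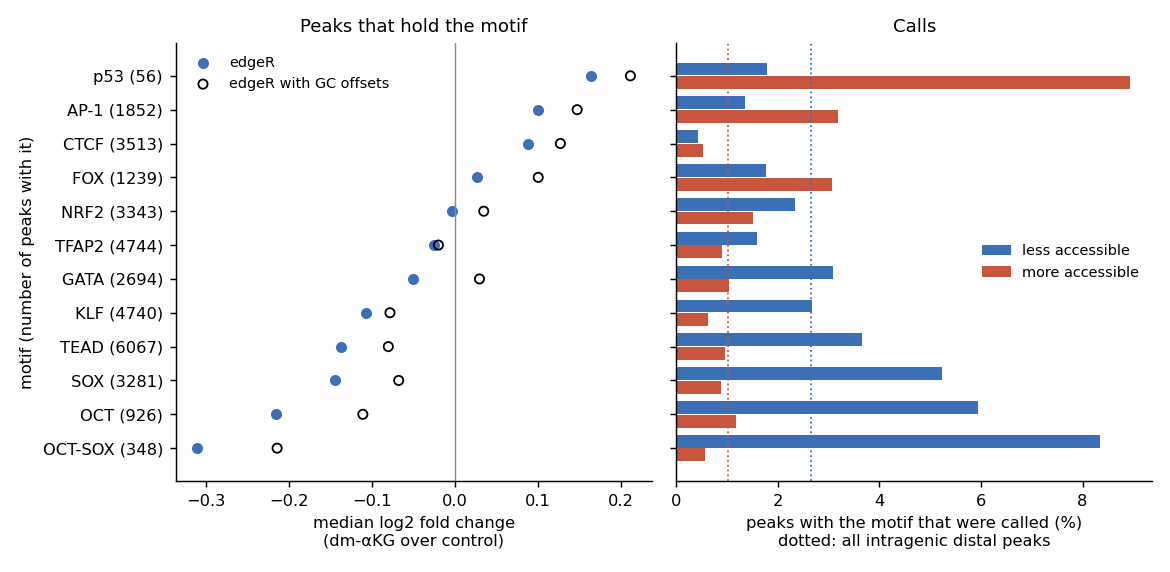
Left, median log2 fold change of the intragenic distal peaks that hold each motif (number of peaks in brackets), from edgeR (filled) and with GC correction (open); right, the share of those peaks called less or more accessible, with dotted lines at the shares for all intragenic distal peaks (2.66% and 1.02%). OCT-SOX peaks lie lowest (−0.31) and carry the highest share of losses (8.33%), and AP-1 and FOX peaks have gains of 3.19% and 3.07%; the p53 bar rests on 5 peaks.

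In intergenic distal peaks the same motifs had medians of −0.32 for OCT-SOX (6.23% less accessible), −0.23 for OCT, −0.18 for SOX, 0.03 for AP-1 (2.77% more accessible) and −0.02 for FOX. The difference between peaks inside and outside genes was not tested.

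Peaks whose sequence recurs in other peaks were called less accessible more often than peaks that shared none. The grouping used sequence alone, but was made after the likeness of the MDM2 window to another had been seen, and is given as a description. Central windows were joined when they shared at least 12 words of 14 bases, words present in more than 800 peaks being left out. By this, 5160 peaks (15.1%) shared sequence with another intragenic distal peak, and 4.77% of these were less and 0.368% more accessible (median −0.20); the 19 more accessible ones became 9 without control library 3. Of the 28942 that shared none, 661 (2.284%) were less and 330 (1.14%) more accessible (median −0.02). With GC correction the shares were 3.74% and 0.678% with shared sequence, and 1.77% and 1.56% without. The median GC content was 50.5% and 52%, and the median level in control 46.1 and 51.5 normalized counts.

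The group that holds the MDM2 window, called group B here, had 96 peaks in 93 host genes, and 69 of them (71.9%) held the OCT octamer, compared with 2.72% of all intragenic distal peaks. Of the 96, 19 (19.8%) were less and 0 more accessible, with a median log2 fold change of −0.62 (−0.53 with GC correction); leaving out 1 library gave 14 to 22. Summed over the group, the control libraries had 17225, 16745 and 16938 normalized counts and the dm-αKG libraries 11841, 12449 and 12826. The treated sums were all lower, at 72.9% of control, whereas peaks with no shared sequence were at 95.9%. In BCAT1, a transaminase of branched-chain amino acids that uses α-ketoglutarate, the peak chr12:24933833-24934034 in intron 1 held 85, 107 and 99.6 in the control libraries and 38.7, 51.3 and 59.9 in the dm-αKG libraries (log2 fold change −1.01 ± 0.20 SE, adjusted p = 7.59e-05). The BCAT1 groups were apart, but its change was near the fold limit and was under it without control library 2 (−0.92), without control library 3 (−0.99), without dm-αKG library 1 (−0.81), with a replicate block (−0.98) and with GC correction (−0.92).

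Related sequence was also found among the peaks of other positions, where 452 shared at least 12 words with a member of group B, and 67 of them (14.8%) were less and 0 more accessible (median −0.54). Of these, the 188 intergenic distal peaks had a median of −0.61 and 19.1% less accessible. Group C, with 91 peaks in 65 host genes and the ALPK1 window among them, had 14 less and 0 more accessible (15.4%, median −0.40) and 2 with the OCT octamer; without dm-αKG library 1 the 14 became 8. Its summed counts were 8598, 8464 and 8639 in control and 5588, 5996 and 6927 with dm-αKG, 72.0% of control. Group A joined 3916 peaks through chains of likeness and may hold unlike sequences; 4.29% were less and 0.281% more accessible (median −0.20). Group D, 31 peaks with a median GC content of 72%, had 1 less and 0 more accessible (median −0.22). No annotation of repeats was used here, so the groups carry no names. Reads from near-identical copies can be lost or placed at another copy, and its part in these values was not tested.

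**Figure D4:**
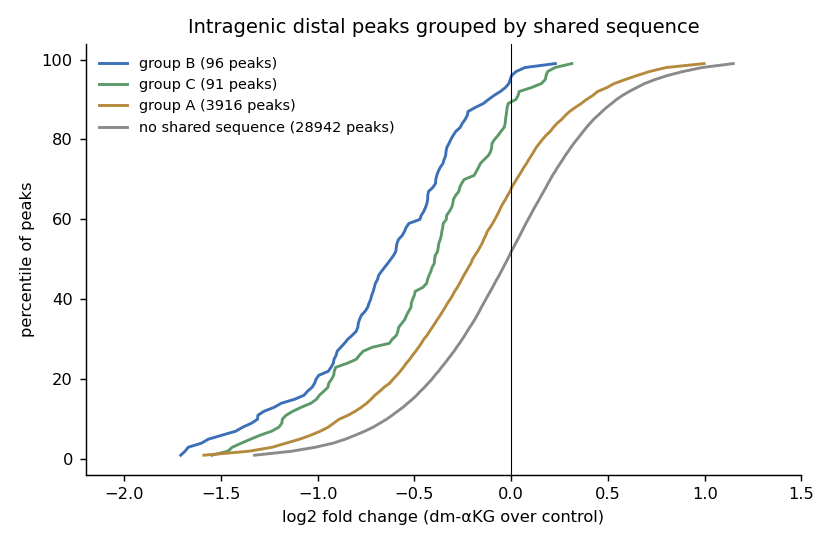
Cumulative distribution of the log2 fold change of intragenic distal peaks grouped by shared sequence: each line gives, for a group, the percentile of its peaks at or below a value. Group B (96 peaks, median −0.62) and group C (91 peaks, median −0.40) lie to the left of group A (3916 peaks, median −0.20) and of the 28942 peaks with no shared sequence (median −0.02).

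Calls were spread over many host genes. Of the 7601 genes, 793 held at least 1 less accessible peak, 332 at least 1 more accessible peak and 49 both. Only 124 genes held 2 or more less accessible peaks, 25 held 3 or more, and 28 held 2 or more that were more accessible. Between neighbouring intragenic distal peaks of a gene (28184 pairs) the log2 fold changes had a Pearson r of 0.20. This is a description across peaks that share libraries. Peaks inside overlapping genes were paired again for each gene, so some pairs are counted repeatedly. Both peaks were less accessible in 72 pairs, both more in 7, and 7 pairs went opposite ways.

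When counts were summed over the intragenic distal peaks of a gene, for the 5680 genes with at least 2, 958 sums (16.9%) were lower and 295 (5.19%) higher with dm-αKG at an adjusted p below 0.01 (edgeR, no fold threshold). Most shifts were small: the medians were −0.39 for the lower and 0.42 for the higher sums on the log2 scale, and −0.05 over all. Of the lower sums 561 (58.6%) belonged to genes with no less accessible peak by the fold threshold. With GC correction 768 were lower and 442 higher. Leaving out dm-αKG library 1 gave 631 lower sums, leaving out control library 2 gave 191 higher sums and leaving out dm-αKG library 2 gave 180.

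The genes with the most less accessible peaks held 4 each. In ACER2, an alkaline ceramidase, 4 of 9 peaks were less accessible, and its summed counts were 1264, 1263 and 1222 in control and 647, 541 and 684 with dm-αKG (adjusted p = 2.13e-23, edgeR). The treated sums were all well under the control sums, at 624 ± 74.0 against 1250 ± 24.1. The peak with the largest change, chr9:19446633-19446832 in intron 5, went from 223 ± 10.6 to 67.4 ± 11.4 (SD, n = 3, log2 fold change −1.68). It was found only in the control list. In MESD, the chaperone of WNT coreceptors, 4 of 8 peaks were less accessible, with sums of 1396, 1414 and 1368 against 841, 853 and 967 (−0.66 ± 0.06). In MTA3, a subunit of the NuRD complex, 4 of 28 were less accessible and the sums were 2261, 2421 and 2175 against 1533, 1466 and 1495 (−0.61 ± 0.05). No treated sum reached a control sum in MESD or MTA3. These genes, like ACER2, were chosen for their less accessible peaks, so this is no added evidence. The less accessible peaks of MESD and MTA3 lay outside the canonical transcript of the gene. TNRC6A, a partner of Argonaute proteins, had 4 of 13 less accessible peaks (sum −0.45 ± 0.05), UBASH3B, a phosphatase, 4 of 24 (−0.38 ± 0.04) and PEBP4 4 of 28 (−0.17 ± 0.04). One of the TNRC6A peaks, chr16:24683864-24684063, held an OCT-SOX match and went from 294 ± 6.71 to 126 ± 39.4 (SD, n = 3). The 4 less accessible peaks of PEBP4 lay outside the canonical transcript, as did those of TNRC6A except chr16:24749250-24749452. With GC correction, the changes of the 4 PEBP4 peaks were −0.99, −2.16, −0.97 and −0.96. In UBASH3B they were −0.97, −1.19, −0.94 and −1.20, and in ACER2 −1.33, −0.95, −1.21 and −1.60. Those under 1 in size missed the fold limit.

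Among genes with several more accessible peaks, CDH23, a cadherin of hair cell tip links, had 4 of 36, all in intron 6, the highest of which with dm-αKG went from 37.2 ± 8.37 to 94.5 ± 5.53 (log2 fold change 1.38 ± 0.21 SE, adjusted p = 3.23e-07). The sum over its 36 peaks rose only by 0.14 ± 0.04. MAD1L1, of the spindle checkpoint, also had 4 of 36 (sum 0.22 ± 0.04), and shares all 36 with the overlapping gene ENSG00000286192. With GC correction its peak chr7:2032582-2032781 had an adjusted p of 0.0115 (edgeR), above the limit. CPNE4 had 2 of 7, with sums of 382, 443 and 423 against 554, 626 and 632 (0.53 ± 0.08). The treated sums of CPNE4, chosen for its more accessible peaks, were all above the control sums.

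The lowest and highest fold changes of sums came from genes with 2 or 3 peaks. HSH2D, an adaptor of lymphocytes, had sums of 110, 156 and 176 in control and 49.5, 69.3 and 55.4 with dm-αKG (−1.36 ± 0.18). MAP2K1, which encodes MEK1, a kinase whose inhibitor is in the medium, had 96.6, 77.3 and 82.6 against 33.0, 23.1 and 46.4 (−1.34 ± 0.23). SNURF, of an imprinted locus, had 111, 123 and 123 against 48.8, 50.0 and 40.4 (−1.34 ± 0.20), from 2 peaks it shares with ENSG00000214265. At all 3 the treated libraries were below every control library. BARX2, a homeobox gene, had 8.05, 7.40 and 17.01 against 40.9, 44.9 and 24.0 (1.86 ± 0.38). EMC8, of the membrane insertion complex of the endoplasmic reticulum, had 22.4, 44.4 and 40.1 against 88.2, 116 and 85.3 (1.43 ± 0.23), and LMOD1, a leiomodin of smooth muscle, 42.0, 38.6 and 58.3 against 128, 119 and 117 (1.42 ± 0.20). CHD9NB had 51.0, 41.1 and 68.02 against 156, 157 and 106 (1.44 ± 0.19). The groups were apart at these 4 genes too, BARX2 at the lowest counts. The genes of this paragraph were chosen for the largest changes among called sums, so groups that lie apart are no added evidence.

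**Figure D5:**
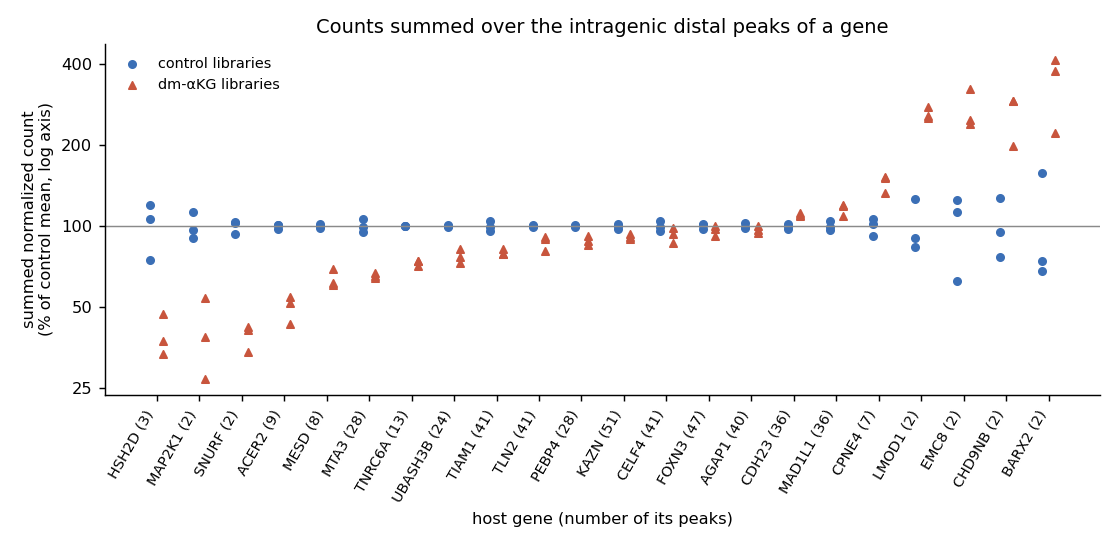
Normalized counts summed over the intragenic distal peaks of 22 host genes, as percent of the control mean (log axis); circles are control libraries and triangles dm-αKG libraries, and brackets give the number of peaks summed. HSH2D, MAP2K1, SNURF and ACER2 lie lowest with dm-αKG and BARX2 highest, while KAZN, CELF4, FOXN3 and AGAP1, with 40 to 51 peaks each, lie near 100.

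In the genes with the most intragenic distal peaks the summed counts shifted by small amounts. KAZN (51 peaks, 1 less accessible) had a sum change of −0.13 ± 0.04 (adjusted p = 0.00681, edgeR), TIAM1, an exchange factor of Rac (41 peaks, 3 less accessible), −0.32 ± 0.04 (7.67e-10), and TLN2, a talin (41 peaks, none called), −0.20 ± 0.04 (4.47e-05). For FOXN3 (47 peaks), CELF4 (41) and AGAP1 (40) the change did not pass the test (−0.05, −0.11 and −0.04). With GC correction that of KAZN did not pass (adjusted p = 0.0348) and that of CELF4 did (0.00517).

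Lists of genes were set beside these results by their counts. Peaks are named by the smallest adjusted p in a list, so groups that lie apart at them are no added evidence. Of all intragenic distal peaks 2.66% were less and 1.02% more accessible, and of all peaks 1.96% and 0.782%. Where a peak is said to go from a first to another value, these are the mean normalized counts ± SD of the 3 control and the 3 dm-αKG libraries. For the pluripotency factors, 5 of 28 genes hosted 48 intragenic distal peaks, of which 2 were less and 0 more accessible (median −0.16). In JARID2, a Polycomb partner, the peak chr6:15461139-15461503 in intron 4 held 406, 420 and 406 in the control libraries and 199, 187 and 211 in the dm-αKG libraries (log2 fold change −1.05 ± 0.10 SE, adjusted p = 9.66e-15), with the treated libraries far below the control libraries; with GC correction its change was −0.93, under the fold limit. The ESRRB peak chr14:76426252-76426451 in intron 1 went from 48.1 ± 3.21 to 19.2 ± 9.63 (log2 fold change −1.21 ± 0.29 SE, adjusted p = 0.00134), a call that was lost without control library 1 (adjusted p = 0.0112) and without dm-αKG library 2 (−0.94). For the trophoblast genes, 9 of 23 hosted 57 peaks, with 1 less and 2 more accessible (median 0.16), and 1 less and 4 more with GC correction (median 0.22). In TBX3, a T-box factor, the peak chr12:114671779-114671978 in exon 7 went from 34.9 ± 5.67 to 71.3 ± 16.8 (log2 fold change 1.06 ± 0.23 SE, adjusted p = 0.000335), under the fold limit without control library 2 (0.98) and without dm-αKG library 2 (0.94). In EGFR, the receptor of epidermal growth factor, the peak chr7:55130085-55130284 in intron 1 went from 18.8 ± 8.13 to 47.3 ± 4.33 (log2 fold change 1.31 ± 0.30 SE, adjusted p = 0.000629), and its adjusted p was 0.0166 without control library 1; the less accessible peak of the list was in EGFR too. The primitive endoderm genes (12 of 15 hosting 63 peaks) had 2 less and 0 more accessible (median −0.13), both in LAMB1, a laminin chain, where the peak chr7:107932913-107933127 in intron 27 held 190, 198 and 186 in the control libraries and 73.9, 66.7 and 86.8 in the dm-αKG libraries (log2 fold change −1.35 ± 0.15 SE, adjusted p = 1.39e-11); the start nearest to it was that of DLD. The mesenchyme and fibroblast genes (8 of 17, 33 peaks) had none of either kind (median 0.11).

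The lists of genes that act on chromatin or on α-ketoglutarate had 0 to 4.69% of their peaks less accessible. Of all intragenic distal peaks 2.66% were, and of all peaks 1.96%. Each of these lists rests on few calls. The α-ketoglutarate dioxygenases hosted 189 peaks in 25 of 42 genes, with 3 less and 0 more accessible (1.59% and 0, median −0.06), and 2 less and 1 more with GC correction (median −0.02). In KDM4A, a histone demethylase, the peak chr1:43660489-43660709 in intron 4, only 10.1 kb from the start, held 184, 174 and 166 in the control libraries and 58.8, 48.7 and 52.4 in the dm-αKG libraries (log2 fold change −1.69 ± 0.16 SE, adjusted p = 5.09e-14). The treated libraries were all under the control libraries. In TET2, which oxidizes methylcytosine, the peak chr4:105210970-105211169 in intron 2 went from 93.7 ± 17.6 to 45.9 ± 15 (log2 fold change −1.06 ± 0.21 SE, adjusted p = 7.36e-05), which missed a threshold without control library 2 (−0.96), without control library 3, without dm-αKG library 1 (−0.83) and with GC correction (−0.95). In KDM4C the peak chr9:6811326-6811525 in intron 3 went from 55.2 ± 7.6 to 23.9 ± 5.69 (log2 fold change −1.25 ± 0.27 SE, adjusted p = 0.000329; adjusted p = 0.0137 without dm-αKG library 1). The genes of the TCA cycle, glutamate and acetyl-CoA (19 of 44, 64 peaks) had 3 less and 0 more accessible (4.69% and 0, median 0.02).

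The histone acetyltransferases (10 of 17 genes, 79 peaks) had 2 less and 1 more accessible (2.53% and 1.27%, median −0.07, 0.02 with GC correction). In CREBBP the peak chr16:3868806-3869005 in intron 1 went from 61.1 ± 15.6 to 25.9 ± 13.2 (log2 fold change −1.27 ± 0.27 SE, adjusted p = 0.000295; −0.96 without dm-αKG library 1), and in NCOA2, a coactivator of nuclear receptors, the peak chr8:70333663-70333862 in intron 1 from 53.7 ± 5.75 to 19.2 ± 11.5 (log2 fold change −1.37 ± 0.29 SE, adjusted p = 0.000198). In BRD1 the peak chr22:49786017-49786216 in intron 8 rose from 27.3 ± 7.94 to 65.4 ± 8.8 (log2 fold change 1.27 ± 0.25 SE, adjusted p = 9.27e-05). The histone deacetylases and corepressors (9 of 22 genes, 43 peaks) had 0 less and 1 more accessible (median −0.03, 0.07 with GC correction), in HDAC4, where chr2:239225484-239225683 went from 8.33 ± 3.31 to 24 ± 3.75 (log2 fold change 1.57 ± 0.42 SE, adjusted p = 0.00433). That call rested on few counts and was lost without control library 1 (adjusted p = 0.0346), control library 2 (0.0335), dm-αKG library 1 (0.0191) or dm-αKG library 2 (0.0259).

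Of the signalling lists, that of TGF-β, activin and BMP had the highest share of less accessible peaks of all 18 lists, 8 of 144 (5.56%). The list of the TCA cycle, glutamate and acetyl-CoA had 4.69%, all intragenic distal peaks 2.66% and all peaks 1.96%. Its 144 peaks lay in 29 of 38 genes, and 2 were more accessible (median −0.05, 0.01 with GC correction). Over all intragenic distal peaks the median was −0.04. The differences between lists were not tested. In SMAD3, which carries the signal of TGF-β and activin to the nucleus, the peak chr15:67149616-67149840 in intron 1 held 182, 176 and 162 in the control libraries and 47.3, 64.1 and 61.4 in the dm-αKG libraries (log2 fold change −1.63 ± 0.17 SE, adjusted p = 3.39e-13). In SKI, an inhibitor of SMAD proteins, the peak chr1:2248359-2248640 in intron 1 held 223, 215 and 253 in the control libraries and 108, 79.5 and 73.3 in the dm-αKG libraries (log2 fold change −1.34 ± 0.14 SE, adjusted p = 1.22e-12). In BMPR2, a BMP receptor, the peak chr2:202421431-202421637 in intron 1 went from 125 ± 9.77 to 56.6 ± 7.59 (log2 fold change −1.11 ± 0.18 SE, adjusted p = 9.37e-07). The groups did not overlap at SMAD3 or SKI, and the 8 less accessible peaks of the list lay in 7 genes. Of these 8, the BMPR2 peak was in group A of shared sequence and an ACVR1 peak in group C.

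The WNT pathway (26 of 42 genes, 211 peaks) had 4 less and 4 more accessible (median −0.07). Beside PRICKLE2, the peak chr10:112992218-112992419 in intron 4 of TCF7L2, a nuclear effector of WNT, went from 184 ± 19.5 to 86.4 ± 13.4 (log2 fold change −1.13 ± 0.15 SE, adjusted p = 6.78e-09; −0.97 without dm-αKG library 1), and chr9:91908121-91908320 in intron 1 of ROR2, a WNT5A receptor, from 50.9 ± 2.23 to 18.8 ± 5.95 (log2 fold change −1.45 ± 0.29 SE, adjusted p = 9.76e-05). The Hippo pathway (26 of 32, 192 peaks) had 3 less and 1 more accessible (median −0.09), the latter being that of FAT2. In TEAD1, the DNA-binding partner of YAP, the peak chr11:12687920-12688119 in intron 2 held 137, 122 and 152 in the control libraries and 42.3, 55.2 and 38.9 in the dm-αKG libraries (log2 fold change −1.59 ± 0.18 SE, adjusted p = 7.63e-11) and a TEAD match of its own. The treated libraries of TEAD1 were all lower. In FAT4 the peak chr4:125325853-125326052 in intron 2 went from 54.7 ± 11.9 to 21.8 ± 2.47 (log2 fold change −1.30 ± 0.28 SE, adjusted p = 0.000233). The genes of the FGF and RAS-ERK pathway (24 of 41, 165 peaks) had 6 less and 4 more accessible (median −0.03, 0.01 with GC correction). In FGFR1, an FGF receptor, the peak chr8:38440665-38440875 in intron 2 held 264, 220 and 239 in the control libraries and 79.6, 88.5 and 132 in the dm-αKG libraries (log2 fold change −1.32 ± 0.14 SE, adjusted p = 1.79e-12), and in RASA3, which turns RAS off, the peak chr13:114019481-114019684 in intron 9 went from 192 ± 11 to 89.3 ± 12.9 (log2 fold change −1.11 ± 0.14 SE, adjusted p = 3.68e-09). In GAB1, an adaptor of receptor kinases, chr4:143362427-143362633 in intron 1 went from 164 ± 9.9 to 77.6 ± 14.4 (log2 fold change −1.12 ± 0.16 SE, adjusted p = 4.33e-08; −0.94 without dm-αKG library 1).

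The genes of polarity and cell junctions (28 of 34, 244 peaks) had 3 less and 0 more accessible (1.23% and 0, median −0.12), and 3 less and 2 more with GC correction (median −0.06). In PATJ, of the Crumbs complex, the peak chr1:62176995-62177194 went from 37.2 ± 5.96 to 12 ± 5.62 (log2 fold change −1.74 ± 0.37 SE, adjusted p = 0.000211; adjusted p = 0.0211 without dm-αKG library 1); the nearest start was that of L1TD1, an RNA-binding protein of pluripotent cells. In F11R, which encodes the junction protein JAM-A, the peak chr1:161005736-161005935 in intron 1 went from 49.1 ± 6.92 to 19.4 ± 6.55 (log2 fold change −1.26 ± 0.29 SE, adjusted p = 0.000718). The CTNNA1 peak chr5:138835178-138835377 in intron 7 went from 28.7 ± 4.4 to 10.9 ± 5.05 (log2 fold change −1.46 ± 0.39 SE, adjusted p = 0.00374) and lost its call without control library 1 (adjusted p = 0.0118), control library 2 (0.0386) or dm-αKG library 1 (0.0717). These 3 windows were in group A of shared sequence, as were those of KDM4C and GAB1 above. The protein kinase C genes (11 of 12, 77 peaks) had 1 less and 1 more accessible (median −0.04, 0.00 with GC correction), in PRKCB and PRKCE, with changes of −1.19 ± 0.29 and 1.00 ± 0.29 on the log2 scale; the PRKCB call was lost without control library 1 (adjusted p = 0.0413), control library 2 (0.014) or dm-αKG library 1 (0.0714), and that of PRKCE without any library other than dm-αKG library 3 (adjusted p from 0.015 to 0.0614).

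The AP-1, NRF2 and antioxidant genes (20 of 40, 107 peaks) had 2 less and 0 more accessible (median −0.08, −0.00 with GC correction), among them BACH2, a repressor at AP-1-like sites, where chr6:89929577-89929776 in exon 9 went from 29 ± 4.64 to 8.2 ± 3.46 (log2 fold change −1.68 ± 0.39 SE, adjusted p = 0.000985). The p53 pathway genes (13 of 24, 53 peaks) had 2 less and 0 more accessible with a median of 0.12, and 2 of each with GC correction (median 0.19). These were MDM2 and SESN1, a sestrin induced by stress, where chr6:109048184-109048390 in intron 1 went from 105 ± 13.5 to 46.7 ± 6.41 (log2 fold change −1.17 ± 0.19 SE, adjusted p = 2.58e-06). The forkhead genes (10 of 20, 127 peaks) had 2 less and 2 more accessible (median −0.04, 0.04 with GC correction): the FOXP1 peak chr3:71007468-71007667 in intron 12 went from 38.8 ± 1.62 to 11.4 ± 8.89 (log2 fold change −1.59 ± 0.35 SE, adjusted p = 0.000456), and the FOXP4 and FOXN3 peaks changed by −1.48 ± 0.36 and 1.14 ± 0.32. FOXP4 lost its call without control library 1 (adjusted p = 0.0273), dm-αKG library 1 (0.0331) or dm-αKG library 2 (0.0103), and FOXN3 without any library other than dm-αKG library 3 (0.0129 to 0.157).

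The synaptic and neuronal adhesion genes, which are long, hosted the most peaks of the lists, 259 in 27 of 30 genes, with 9 less and 6 more accessible (3.47% and 2.32%, median −0.00, 0.07 with GC correction). In CNTN4, a contactin, the peak chr3:2421039-2421241 in intron 3, 90.5 kb from the start, held 365, 381 and 362 in the control libraries and 144, 176 and 123 in the dm-αKG libraries (log2 fold change −1.32 ± 0.11 SE, adjusted p = 4.83e-17). In DAB1, the adaptor of reelin signalling, the peak chr1:57307486-57307686 in intron 1 held 450, 458 and 438 in the control libraries and 194, 219 and 210 in the dm-αKG libraries (log2 fold change −1.12 ± 0.10 SE, adjusted p = 1.15e-16). Neither showed an overlap between the groups. In RBFOX1, a splicing factor of neurons, the peak chr16:6558178-6558386 in intron 2 went from 194 ± 15.1 to 92.6 ± 9.14 (log2 fold change −1.09 ± 0.14 SE, adjusted p = 5.62e-09; −0.99 without dm-αKG library 1 and with GC correction). In these lists the share of less accessible peaks ran from 0 to 5.56% beside 2.66% over all intragenic distal peaks, and that of more accessible ones from 0 to 3.51% beside 1.02%.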

How the data were processed

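ATAC-seq was done on H9 nES cells, 3 control and 3 dm-αKG libraries. Per the paper's methods and the labels, the authors demultiplexed with bcl2fastq 2.20.0.422, ran the ENCODE pipeline once per treatment (Bowtie 2 to hg38, MACS2, peaks reproducible between replicates), cut the peaks of both runs to 200 bp around the summit, merged them and counted reads with bedtools 2.28.0. The deposited table holds whole-number counts per peak and library, with no normalization. The deposited peak lists hold a score, a fold enrichment (ratio over background) and −log10 p-values and q-values, of which the position and the fold enrichment were read.

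Members, gene lists, motifs and named peaks were chosen with earlier results of these data known. Starts, genes and exons came from GENCODE 44, sequence from hg38. All 171517 peaks were fitted with edgeR 4.0.16 (TMM, quasi-likelihood, no filter, no covariate; R 4.3.3), with Benjamini-Hochberg adjustment over all peaks and peaks called where the adjusted p was under 0.01 and the change over 1 on the log2 scale in either direction. Host gene sums used the library sizes and factors of the whole table. GC correction subtracted each library's trend over 50 bins of GC content as an offset. Shares of counts were compared by an exact permutation test. The fits were tested on simulated counts. Counting error falls with depth, and peaks with few counts are the least precise; reads carry no molecular identifiers. Named were the 8 peaks of each direction with the smallest adjusted p (libraries not overlapping, 1 per gene, autosomes other than 8), the genes with the most less (6) and more (4) accessible peaks, up to 3 genes per list with a called peak, the 4 lowest and 4 highest called gene sums, and the 6 genes with the most peaks. Motifs were matched on both strands of the central 200 bases, exactly except OCT-SOX (2 mismatches), CTCF and p53 (1 each). Alternatives were other scalings, DESeq2 1.42.0, limma-voom 3.58.1, filters, thresholds, left-out libraries, the replicate block, thinning and other membership limits. Some peaks that the naming rule gave are not reported here.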

Additional observations from a re-analysis of the deposited data

How the results depend on the processing

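The excess of losses over gains held under every alternative run. Counts of less accessible peaks (907) and more accessible peaks (349) moved by over 1.5 times in these cases: among peaks of both lists, 349 less and 76 more; with no fold threshold, 2792 and 1015; more than 20 kb from a start (22062 peaks), 586 less; with DESeq2, 204 more (669 less). Leaving out 1 library gave 753 to 1021 less and 277 to 364 more, with GC correction 705 and 486, and thinned to the smallest library 812 and 311. Lower host gene sums (958) ran from 631 to 1106 and higher ones (295) from 180 to 302 when 1 library was left out; DESeq2 gave 180 higher (727 lower). Scaling by RLE, total count or upper quartile gave 870 to 903 less and 352 to 380 more. The share of counts differed by −0.53 to −0.76 percentage points without 1 library. All 16 peaks chosen for the smallest adjusted p in their direction kept their call in each of the 12 settings run. Over the 54 peaks that the naming rule gave, 580 of 638 values kept their call and none changed sign. Among the peaks described, calls were lost with DESeq2 at ESRRB, HDAC4, BCAT1, CTNNA1, PRKCB, PRKCE, FOXP4 and FOXN3, and with a replicate block at BCAT1, PRKCE and FOXN3.

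No pairing by replicate number was visible in the counts: deviations of same-numbered libraries from their group means correlated at −0.0135, −0.0013 and 0.0133. With 3 libraries per group, these values cannot show whether the samples were handled in pairs. With a replicate block 893 were less and 332 more accessible, and 982 sums lower and 305 higher. Requiring 8 or 20 shared words of 14 bases, settings added after the data were seen, put 19.5% or 9.85% of peaks among those with shared sequence, with 4.64% or 4.70% less accessible. The cause of these shifts was not tested. At the lowest depth, 13025674 counts, peaks with few counts limit what can be called.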
